A study of Mus musculus with 12 samples.

Results

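The genes of the translation initiation factors (Eif) and elongation factors (Eef) were followed in blood neutrophils of mice transplanted with bone marrow that had lost the Y chromosome (LOY) or with control bone marrow. The members were the listed genes whose symbol begins with Eif and a digit from 1 to 6, or with Eef and 1 or 2. This pattern matched 66 names, of which Eif2s3x, Eif2s3y and 3 pseudogenes were left out, so that 61 genes of the 11494 listed remained. The rule reads names only, although the family was picked with earlier results of these data known. RNA was sequenced in bulk from 12 libraries, 6 of the LOY transplant group and 6 of the control transplant group. Each library came from 10000 blood cells sorted as Ly6G+CD115-RFP+ after red cell lysis, and the treatment label reads Control in both groups. Mouse strain, age and the way the Y chromosome was lost are not given in the sources used here. Whether libraries stem from separate mice is not stated in the labels, and p-values here reflect only library-to-library spread, which may be technical.

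Translation starts when the small ribosomal subunit, loaded with eIF1, eIF1A, eIF3, eIF5 and eIF2 carrying the initiator tRNA, is brought to the cap of an mRNA by eIF4E, eIF4G and the helicase eIF4A, and then scans for a start codon. The cell limits this process at the cap, where the 4E-binding proteins sequester eIF4E until the kinase mTOR phosphorylates them, and at eIF2, which stress-activated kinases phosphorylate so that its exchange factor eIF2B is blocked. Elongation then uses eEF1A to deliver aminoacyl-tRNA and eEF2 to move the ribosome along. Circulating neutrophils are short-lived cells with little RNA that still make proteins such as cytokines when they are stimulated.

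The deposited values are gene read counts divided by 1 size factor per library and are called normalized reads here. Recovered read totals ranged from 17097739 to 19616066 in LOY libraries and from 13743581 to 18459792 in control libraries. Control 1, 2 and 12 stood apart, with 20.5%, 21.7% and 17.3% of listed genes at 0. This share was 6.59% to 11.6% in LOY libraries and 9.33% to 11.1% in Control 6, 17 and 18. All 8 neutrophil markers were present in every library, and their sum was 85856 to 116240 per 1000000 normalized reads in LOY and 83221 to 133740 in control libraries. Of the other cell types, the erythroid markers (5 of 5 listed) ranged from 5896 to 37880 per 1000000 in LOY and from 4280 to 8878 in control libraries, and the highest value belonged to LOY 15. Monocyte markers (4 of 6 listed) summed to 926 to 1298 per 1000000 in LOY and 649 to 1166 in control libraries, and B cell markers (5 of 5) to 106 to 459 in LOY and 227 to 399.7 in control libraries. Platelet markers (4 of 4) summed to 27.4 to 69.8 per 1000000 in LOY and 30.2 to 88.2 in control libraries, and T and NK cell markers (4 of 7) to 5.72 to 15.5 in LOY and 7.01 to 28.3 in control libraries. The monocyte gene F13a1 was at 0 in 4 LOY libraries and in 6 control libraries. Of 5 eosinophil and basophil markers only Mcpt8 was listed, at 0 in 3 LOY and 5 control libraries. The loss itself was visible in the Y-linked partner that the name pattern set aside. Eif2s3y, which encodes the Y copy of the eIF2 gamma subunit, stood at 180 ± 396 normalized reads in LOY and 2348 ± 590 in control libraries (SD, n = 6 each), and LOY 4 kept 42.0% of the control mean.

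No member of the family passed the test between LOY and control neutrophils. The most abundant members per kilobase of exon, Eif1, Eif4ebp1, Eif5a, Eef1a1 and Eef2, had log2 fold changes between −0.21 and 0.03, and each member whose estimate lay beyond 2-fold had a lowest library between 0 and 10.2 normalized reads. The family as a whole took 4057 to 4650 of every 1000000 normalized reads in LOY libraries and 4222 to 4806 in control libraries, and these ranges overlapped. In bulk RNA, fewer cells of a type and less RNA per cell cannot be told apart.

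The test was limma on log2(normalized reads + 1), run over all genes with 10 or more normalized reads in at least 6 libraries, with Benjamini-Hochberg adjustment over all 9742 genes. Fold changes are on that scale, LOY over control. The added 1 shrinks differences among the lowest values. Each library's log value counts equally, so 1 or a few libraries near 0 can place an estimate far above or below that of edgeR, as in Eef1akmt1 (3.04 against 0.49 with edgeR) and Eif3e (−0.28 against −1.36 with edgeR). Of the 61 members, 58 were tested and 0 had an adjusted p under 0.05, where the background over all genes was 0.0205% (2 of 9742). At an unadjusted p under 0.05 there were 3 of 58 members, or 5.17%, beside 6.04% of all genes. Of these, 1 was higher in LOY, where the background is 4.4%, and 2 were lower, where it is 1.63%. With edgeR on the recovered reads 0 members passed and 1 had an unadjusted p under 0.05 (background 2.94%), and with DESeq2 0 passed and 5 did (background 4.17%). With both tools 0 of these members were higher in LOY. Over all genes 140 were higher and 146 lower of 9742 with edgeR, and 170 higher and 235 lower of 9710 with DESeq2. In 0 members did the 6 LOY values lie wholly above or below the 6 control values, which held for 0.287% of all genes tested (0.175% with LOY above and 0.113% with LOY below). The sign was positive in 34 members and negative in 24 (58.6% positive, beside 60.9% of all genes). The median estimate was 0.12, beside 0.14 for all genes. With edgeR the median of all genes was −0.01 and that of the members −0.06, with 28 members positive. The median gene was at 0.00 with quantile normalization. Of the members, 0 had an adjusted p under 0.05 in the authors' deposited table, beside 0.493% of the genes with an adjusted p there.

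**Figure D1:**
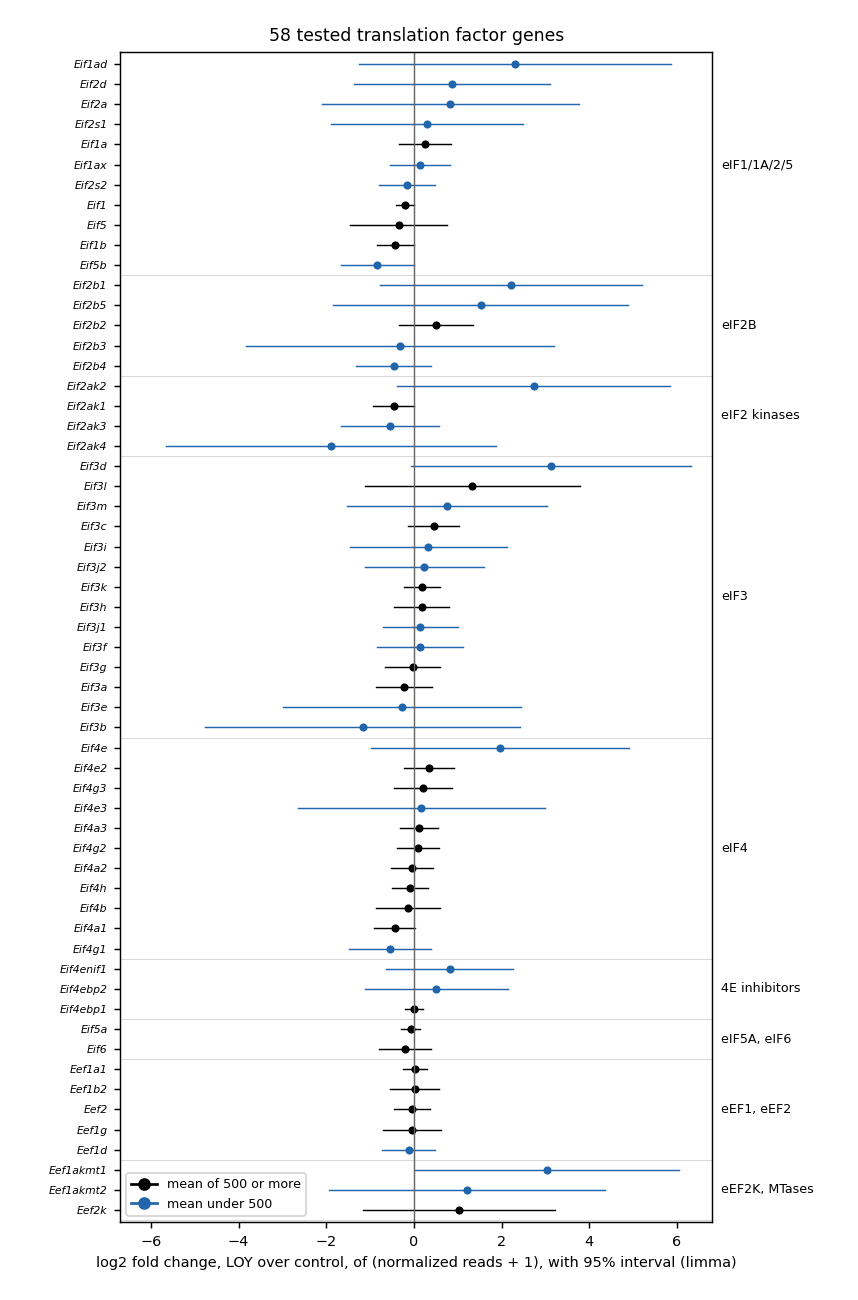
log2 fold change of (normalized reads + 1), LOY over control, with its 95% interval from limma for the 58 tested members, grouped by role; black marks members with a mean of 500 or more normalized reads and blue those below. Most black intervals are short and lie near 0, whereas the blue ones reach from −5.64 (Eif2ak4) to 6.32 (Eif3d).

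Levels within the family, compared per kilobase of exon, spanned more than 3 orders of magnitude. Eif1 led with a mean of 7273 normalized reads per kilobase over all 12 libraries, followed by Eif4ebp1 at 3448, Eif5a at 2956, Eef1a1 at 1638 and Eef2 at 1050. The lowest were Eef1e1 at 3.02, Eif5a2 at 5.20 and Eif2b3 at 5.74. Ordered by mean normalized reads without regard to length, the first 3 members, Eif1, Eif4ebp1 and Eif5a, held 41.5% of all normalized reads of the family, and the first 5, which add Eef1a1 and Eif4h, held 52.4%. On that scale 13 members were at 1000 or more, 38 between 100 and 1000, and 10 under 100. The median coefficient of variation over the 12 libraries was 24.4%, 42.1% and 119% in these classes. At least 1 library was at 0 for 15 members. The order depends on the length used. Divided by the length of the main transcript alone, Eif1, Eif5a, Eif4g2, Eif4ebp1 and Eef1a1 ranked 1 to 5 of 61 and Eef2 ranked 7. Eif4g2 ranked 11 per kilobase of exon, and its main transcript has 742 bases of 10166 bases of exon. Its rank of 3 comes from the reads of the whole gene divided by this short transcript and is uncertain. Eif2b3 stood at 24.1 per kilobase of main transcript.

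**Figure D2:**
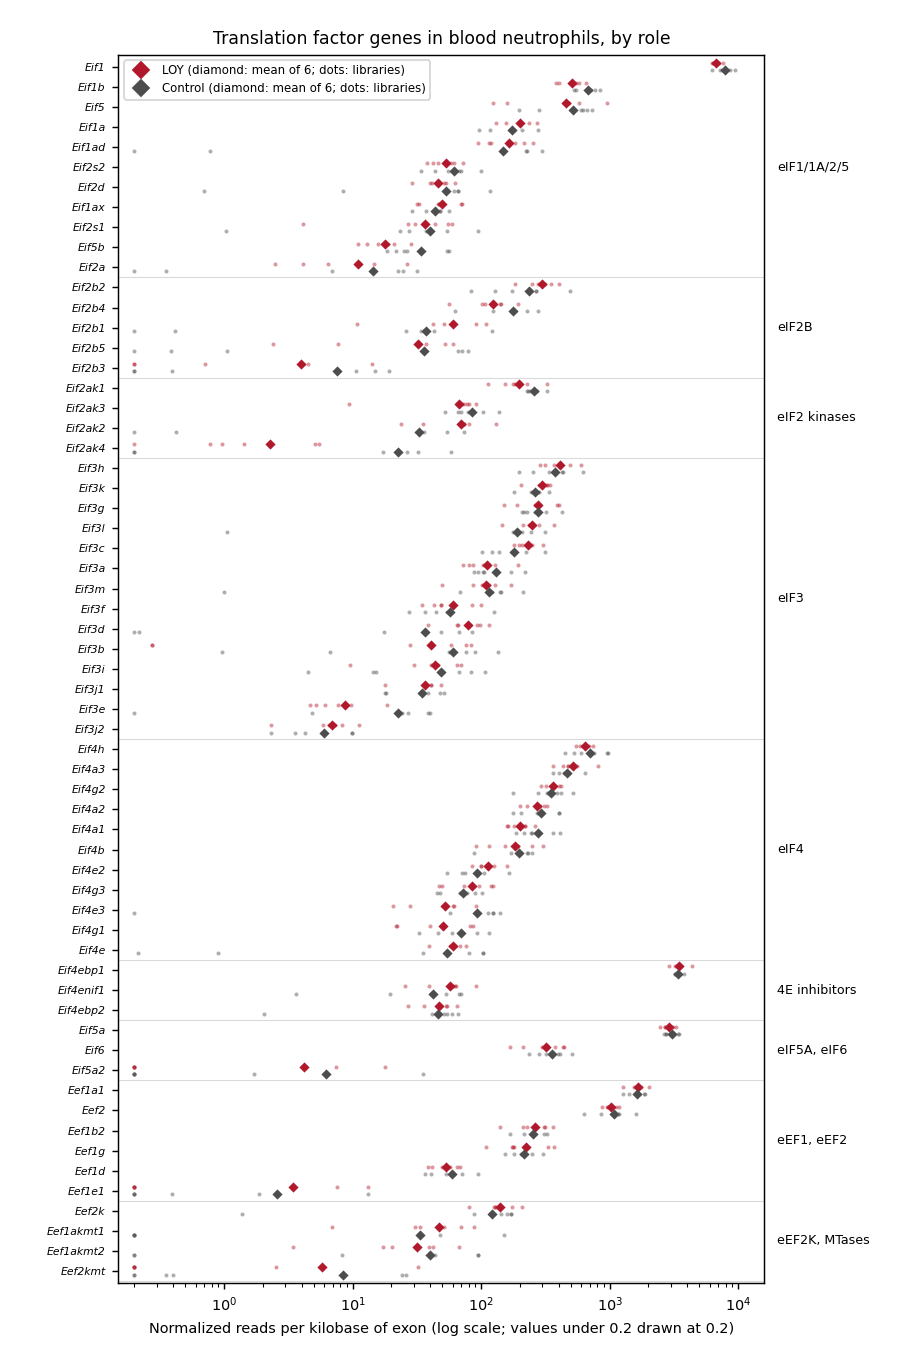
Normalized reads per kilobase of exon (log axis) for the 61 members by role, with LOY in red above control in grey; dots are libraries and diamonds the means of 6. Eif1, Eif4ebp1, Eif5a, Eef1a1 and Eef2 stand to the right of their groups, and scattered dots at the left edge are libraries of either group at or near 0.

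Start codon selection held the member with the highest level, Eif1. The protein eIF1 holds the scanning ribosome in an open state until a start codon is found, and Eif1b encodes a close relative. In both genes all 6 LOY values lay below the control median, and neither passed the test. Their coding sequences are the same length, 339 bases, and identical at 275 positions (81.1%). The first 90 coding bases are shown because reads of these sister genes can be separated only where the sequences differ. Capitals mark the 13 positions at which they differ (GENCODE vM21 transcripts on GRCm38; Eif1 on chromosome 11 and Eif1b on chromosome 9).
Eif1: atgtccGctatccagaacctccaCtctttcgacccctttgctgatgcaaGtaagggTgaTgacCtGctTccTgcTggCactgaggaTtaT
Eif1b: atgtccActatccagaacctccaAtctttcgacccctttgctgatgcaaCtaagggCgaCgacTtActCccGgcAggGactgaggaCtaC

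Eif1 (ENSMUSG00000035530, chromosome 11, 100319885 to 100322096, GRCm38) ranged from 13118 to 15873 normalized reads in LOY libraries, with a median of 13694, and from 13018 to 19902 in control libraries, with a median of 16302. Control 1 and 2 were the highest of the 12 and Control 18 was the lowest, so the groups overlapped. This gave a log2 fold change of −0.21 ± 0.10 (SE; limma adjusted p = 0.81), which is −0.35 relative to the median gene at 0.14. With edgeR, where the median gene was at −0.01, the estimate was −0.20. With quantile normalization, where the median gene was at 0.00, it was −0.21. Without Control 1, 2 and 12 it was −0.05, and −0.01 once each library's share of listed genes at 0 entered as a covariate. Within Eif1, 31.6% of the 50-base windows of its main transcript also occur in transcripts of other genes.

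Eif1b (ENSMUSG00000006941, chromosome 9, 120492232 to 120495330) ranged from 427 to 736 normalized reads in LOY libraries, with a median of 585, and from 589 to 938 in control libraries, with a median of 784. LOY 4 and 19 were the lowest and Control 2 and 17 the highest, and the groups overlapped. On the log2 scale the difference was −0.42 ± 0.19 (SE; limma adjusted p = 0.81), or −0.56 relative to the median gene at 0.14. With edgeR, where the median gene was at −0.01, the difference was −0.40. It stayed between −0.50 and −0.32 under every alternative run. Only 0.811% of its 50-base windows are shared with another gene, D830035M03Rik, and none with Eif1. Per kilobase, Eif1 exceeded Eif1b by a factor of 10.8 to 18.7 within LOY libraries and 9.68 to 15.5 within control libraries.

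Eif5 encodes the protein that triggers GTP hydrolysis by eIF2 at the start codon. It varied widely in both groups, from 836 to 6459 normalized reads in LOY libraries with a median of 3161, and from 1337 to 4980 in control libraries with a median of 4131. LOY 4 was the highest of the 12 and LOY 10 the lowest. Its log2 fold change was −0.35 ± 0.51 (SE; limma adjusted p = 0.899), with a 95% interval of −1.46 to 0.76.

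Eif5b encodes the GTPase that joins the ribosomal subunits and was named after its values were seen. It ranged from 108 to 278 normalized reads in LOY libraries, with a median of 169.8, and from 182 to 548 in control libraries, with a median of 251. Control 1 and 12 were far above the others, and 5 of 6 LOY values lay below the control median. The estimated log2 fold change was −0.83 ± 0.39 (SE; limma adjusted p = 0.81) and −0.89 with edgeR, in which it was the member with an unadjusted p under 0.05. Without Control 1, 2 and 12 it was −0.50. Its main transcript shares 18.2% of its 50-base windows with 1 other gene, Rev1.

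The remaining 7 genes of this role were Eif1a, its X-linked relative Eif1ax, Eif1ad, the eIF2 subunit genes Eif2s1 and Eif2s2, and Eif2a and Eif2d, whose products can bring initiator tRNA to the ribosome by other routes. Their log2 fold changes ran from −0.16 ± 0.29 (SE) for Eif2s2 to 2.31 ± 1.64 for Eif1ad, and 0 had an unadjusted p under 0.05 (limma). Eif1ad was put in this role by the list used, and a part in start codon selection was not tested. It ranged from 263 to 705 normalized reads in LOY libraries, was at 2.15 and 0 in Control 1 and 2, and at 403 to 832 in the remaining 4 control libraries. Its estimate was −0.47 without Control 1, 2 and 12. Eif1a stood at 836 ± 219 normalized reads in LOY and 728 ± 273 in control libraries (SD, n = 6 each), and Eif1ax at 260.4 ± 89.4 in LOY and 231 ± 49.9 in control libraries.

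**Figure D3:**
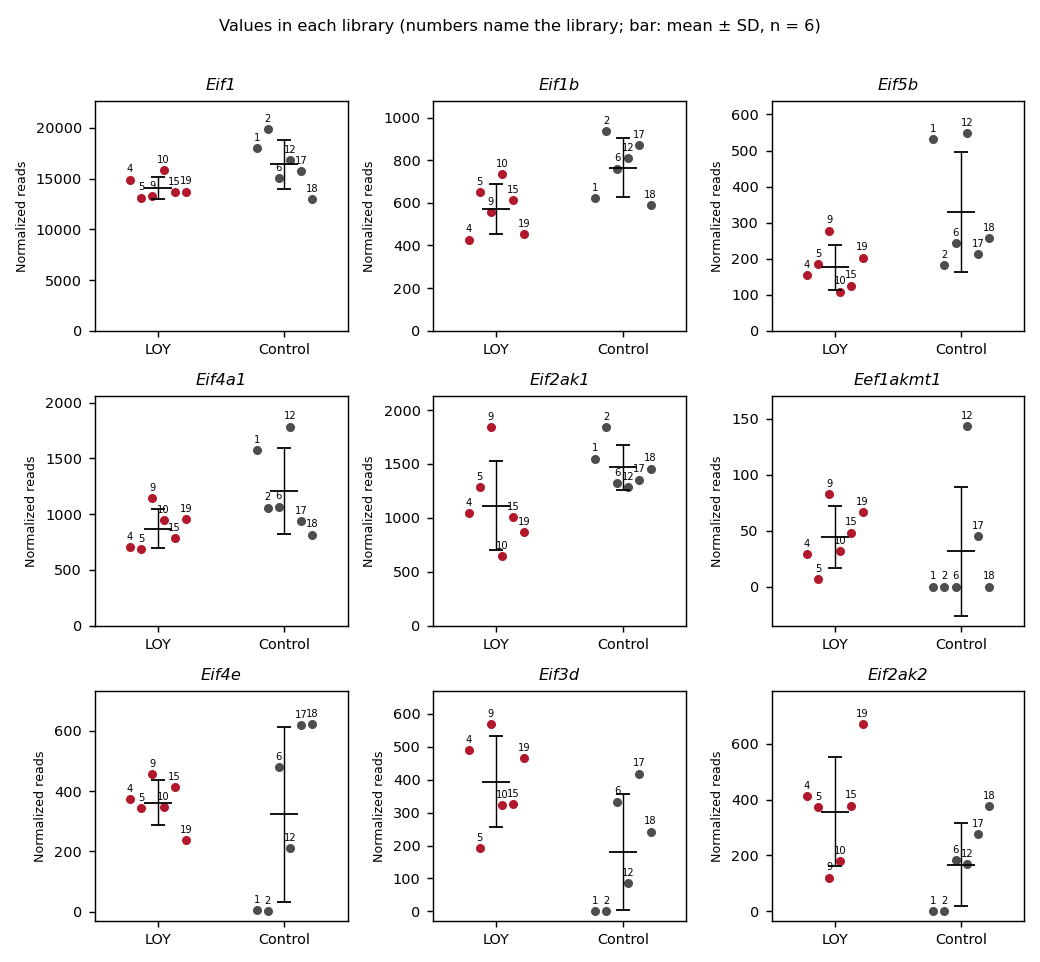
Normalized reads of 9 members in each library, LOY left and control right, with the library number at each point and the mean ± SD (n = 6). The groups overlap in every panel, and Control 1 and 2 lie at or near 0 for Eif4e, Eif3d and Eif2ak2 while they are among the higher libraries for Eif1 and Eif2ak1.

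The exchange factor eIF2B reloads eIF2 with GTP. Of its 5 subunit genes 0 passed and 0 had an unadjusted p under 0.05 (limma). Eif2b2, the beta subunit gene and the highest of the 5 per kilobase, ranged from 346 to 763 normalized reads in LOY libraries with a median of 554, and from 158 to 922 in control libraries with a median of 417. Eif2b1, the alpha subunit gene, ranged from 28.0 to 279 in LOY libraries with a median of 144, and from 0 to 311 in control libraries with a median of 77.1. In both genes 5 of 6 LOY values were above the control median and the groups overlapped. The log2 fold changes were 0.51 ± 0.39 (SE; limma adjusted p = 0.84) for Eif2b2 and 2.22 ± 1.38 (adjusted p = 0.823) for Eif2b1. Eif2b1 had 1.08 and 0 normalized reads in Control 1 and 12, its estimate was 0.71 with edgeR, and without Control 1, 2 and 12 it was 0.55. The other subunit genes were Eif2b4 at −0.46 ± 0.39, Eif2b5 at 1.52 ± 1.55 and Eif2b3 at −0.31 ± 1.62.

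The 4 kinases that phosphorylate eIF2 alpha differ in what activates them. Eif2ak1 encodes the kinase activated by lack of haem, known from red cell precursors, and was the most abundant of the 4 per kilobase. It ranged from 644 to 1841 normalized reads in LOY libraries, with a median of 1025, and from 1286 to 1843 in control libraries, with a median of 1406. LOY 9 reached the top of the control range and the other 5 LOY libraries lay below every control library. The log2 fold change was −0.46 ± 0.22 (SE; limma adjusted p = 0.81), and it stayed between −0.62 and −0.32 under every alternative run. LOY 15, the library with the highest erythroid marker sum, had 1006 normalized reads of Eif2ak1, near the LOY median, and the part of red cell RNA in this result was not tested. Of its 50-base windows 12.1% are shared with other genes, chiefly Aimp2.

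Eif2ak2 encodes the kinase activated by double-stranded RNA (PKR). It ranged from 121 to 671 normalized reads in LOY libraries with a median of 376, and from 0 to 376 in control libraries with a median of 176. Control 1 and 2 had 2.15 and 0, whereas the other 4 control libraries lay between 169 and 376, inside the LOY range. This gave a log2 fold change of 2.73 ± 1.44 (SE; limma adjusted p = 0.81), 1.10 with edgeR, and 0.21 without Control 1, 2 and 12. Entering each library's percentage of genes at 0 as a covariate gave −0.51.

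Eif2ak4 encodes the kinase activated by uncharged tRNA during amino acid shortage (GCN2) and was named after its values were seen. It was low in all LOY libraries, from 0 to 41.0 normalized reads with a median of 8.88. In control libraries it ranged from 0 to 434 with a median of 164. Control 1, 2, 12 and 18 lay between 129 and 434, and Control 6 and 17 were at 0, so the groups overlapped. On the log2 scale the difference was −1.89 ± 1.73 (SE; limma adjusted p = 0.855) but −3.27 with edgeR and −3.29 in the authors' deposited table (adjusted p = 0.617 there). Without Control 1, 2 and 12 the limma estimate was 0.70, the opposite sign. None of the 50-base windows of its main transcript is shared with another gene. Eif2ak3, the kinase activated by unfolded protein in the endoplasmic reticulum (PERK), had 404 ± 175 normalized reads in LOY and 510 ± 187 in control libraries (SD, n = 6 each; log2 fold change −0.54 ± 0.52 SE).

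The eIF3 complex is the scaffold on which the initiation complex is built, and 14 genes of its subunits were listed. All 14 were tested, 0 passed, and 0 had an unadjusted p under 0.05 (limma). Estimates were positive in 10 and negative in 4 (71.4% positive, beside 60.9% of all genes). The subunits differ in level although they assemble into 1 complex, from 394 normalized reads per kilobase for Eif3h to 6.45 for Eif3j2, with a median of 84.96. Per kilobase of main transcript Eif3k was the highest, at 979. Eif3j2 shares 91.8% of its 50-base windows, nearly all with Eif3j1, and the coding sequences of these genes are 99.2% identical, so their values are uncertain.

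Eif3d, whose product can bind the cap of some mRNAs directly, ranged from 193 to 570 normalized reads in LOY libraries with a median of 396, and from 0 to 419 in control libraries with a median of 165. All 6 LOY values were above the control median. Control 1 and 2 had 1.08 and 0, Control 12 had 87.0, and Control 6, 17 and 18 had 242 to 419, inside the LOY range. The estimated log2 fold change was 3.12 ± 1.47 (SE; limma adjusted p = 0.81), 1.14 with edgeR and 0.20 without Control 1, 2 and 12, and −0.37 with the share at 0 as covariate.

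Eif3c, a core subunit gene, ranged from 628 to 1072 normalized reads in LOY libraries with a median of 781, and from 354 to 1095 in control libraries with a median of 549. All 6 LOY values were above the control median, but Control 12 was the highest of the 12. The log2 fold change was 0.45 ± 0.27 (SE; limma adjusted p = 0.823), and it stayed between 0.19 and 0.63 under every alternative run. Eif3e ranged from 31.5 to 124 normalized reads in LOY libraries with a median of 46.6, and from 0 to 269.9 in control libraries with a median of 172. Control 2 had 0 and Control 6 had 32.2. Its log2 fold change was −0.28 ± 1.25 with limma and −1.36 with edgeR. Eif3l and Eif3m were at 3.84 and 2.56 normalized reads in Control 2, while the other control values were 638 or more for Eif3l and 178 or more for Eif3m. Eif3b was under 1 normalized read in LOY 9 and 10 and at 3.23 in Control 1, with values up to 279 in LOY and 453 in control libraries. The core subunit gene Eif3a and the genes Eif3f, Eif3g, Eif3h, Eif3i, Eif3j1 and Eif3k had log2 fold changes between −0.23 and 0.33.

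The cap-binding, scaffold and helicase factors of the eIF4 group had 11 members, of which 0 passed and 0 had an unadjusted p under 0.05 (limma). Eif4h, which encodes a protein that stimulates the helicase eIF4A, was the highest per kilobase of exon at 674. Per kilobase of main transcript Eif4g2 was higher, at 4868 beside 1580 for Eif4h. That value divides the reads of the whole gene, with 10166 bases of exon, by a main transcript of 742 bases, so it is uncertain. Eif4h ranged from 3048 to 4102 normalized reads in LOY libraries with a median of 3478, and from 2489 to 5399 in control libraries with a median of 3743. Eif4g2, which encodes a scaffold that lacks the eIF4E-binding part, ranged from 2966 to 4225 in LOY libraries with a median of 3694, and from 1796 to 5293 in control libraries with a median of 3632. In both genes the LOY range lay inside the control range. The log2 fold changes were −0.10 ± 0.19 (SE; limma adjusted p = 0.926) for Eif4h and 0.10 ± 0.22 (adjusted p = 0.935) for Eif4g2.

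The helicase eIF4A, which unwinds the start of the mRNA, is encoded by Eif4a1 and Eif4a2, with a ratio of Eif4a1 to Eif4a2 per kilobase of 0.56 to 0.97 in LOY and 0.54 to 2.05 in control libraries. Eif4a1 ranged from 688 to 1147 normalized reads in LOY libraries with a median of 866, and from 816 to 1785 in control libraries with a median of 1064. Control 1 and 12 were the highest and 5 of 6 LOY values lay below the control median. This gave a log2 fold change of −0.44 ± 0.22 (SE; limma adjusted p = 0.81), and −0.13 without Control 1, 2 and 12. Eif4a1 is uncertain because 65.3% of its 50-base windows occur in other transcripts, 64.9% in the pseudogene Eif4a-ps4. Eif4a2 ranged from 1066 to 1727 in LOY libraries with a median of 1524, and from 945 to 2160 in control libraries with a median of 1480. It had an estimate of −0.05 ± 0.22 (adjusted p = 0.971), and −0.40 without Control 1, 2 and 12.

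Eif4e, the gene of the cap-binding protein itself, was the lowest of the eIF4 group per kilobase, at 57.0. It ranged from 237 to 455 normalized reads in LOY libraries with a median of 361, and from 1.28 to 622 in control libraries with a median of 346. Control 1 and 2 had 5.38 and 1.28, while Control 6, 17 and 18 were above every LOY library and Control 12 was below every one. On the log2 scale the difference was 1.96 ± 1.36 (SE; limma adjusted p = 0.83), 0.18 with edgeR and −0.68 without Control 1, 2 and 12, the opposite sign. Its relatives Eif4e2 and Eif4e3 stood at 852 ± 198 and 132 ± 64.1 normalized reads in LOY libraries, against 700 ± 292 and 233 ± 135 in control libraries (SD, n = 6 each). All 6 LOY values of Eif4e2 were above the control median (log2 fold change 0.35 ± 0.26 SE) and all 6 of Eif4e3 were below it (0.16 ± 1.30, and −0.80 with edgeR), Control 1 having none of Eif4e3. The large scaffold genes Eif4g1 and Eif4g3 had estimates of −0.55 ± 0.43 and 0.20 ± 0.31, and the helicase partner Eif4b had −0.13 ± 0.34.

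Eif4ebp1, which encodes the inhibitor 4E-BP1, ranged from 6326 to 9599 normalized reads in LOY libraries with a median of 7371, and from 7082 to 8293 in control libraries with a median of 7495. The control range lay inside the LOY range. Its log2 fold change was 0.00 ± 0.09 (SE; limma adjusted p = 0.996) with a 95% interval of −0.20 to 0.21, and it stayed between −0.07 and 0.05 under every alternative run. Per kilobase Eif4ebp1 exceeded Eif4e by a factor of 47.8 to 75.7 within LOY libraries, and of 31.1 to 16490 within control libraries, where the top values come from Control 1 and 2 with their few Eif4e reads. The ratio of the means over all 12 libraries was 60.5. These are RNA levels, and the phosphorylation that governs 4E-BP1 was not measured. Eif4ebp2, encoding a second inhibitor, ranged from 155 to 375 normalized reads in LOY libraries with a median of 289, and from 11.8 to 384 in control libraries with a median of 306 (log2 fold change 0.51 ± 0.75 SE). Eif4enif1, which encodes the protein that carries eIF4E into the nucleus, ranged from 164 to 576 in LOY libraries with a median of 391, and from 23.1 to 447 in control libraries with a median of 298 (0.81 ± 0.67).

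Eif5a encodes a factor that helps the ribosome through difficult peptide bonds and carries the modified amino acid hypusine. It ranged from 5821 to 7847 normalized reads in LOY libraries with a median of 6792, and from 6311 to 8206 in control libraries with a median of 7063. The estimated log2 fold change was −0.07 ± 0.10 (SE; limma adjusted p = 0.888) with a 95% interval of −0.29 to 0.14. Its paralogue Eif5a2 was at 0 in 4 LOY and 4 control libraries, with single values up to 90.2 in LOY 15 and 178 in Control 2, and was not tested. Eif6, whose product keeps ribosomal subunits apart, ranged from 452 to 1186 in LOY libraries with a median of 907, and from 639 to 1381 in control libraries with a median of 964 (−0.20 ± 0.28, adjusted p = 0.89).

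Among the elongation factor genes 5 were tested, and their log2 fold changes lay between −0.12 and 0.03. Eef1a1 ranged from 3189 to 5032 normalized reads in LOY libraries with a median of 4135, and from 3184 to 4673 in control libraries with a median of 4145. Eef2 ranged from 2911 to 3931 in LOY libraries with a median of 3258, and from 2112 to 5301 in control libraries with a median of 3683. The LOY range of Eef2 lay inside the control range, and both groups of Eef1a1 covered nearly the same range. The log2 fold changes were 0.03 ± 0.13 (SE; limma adjusted p = 0.97) for Eef1a1, with a 95% interval of −0.25 to 0.30, and −0.04 ± 0.19 (adjusted p = 0.971) for Eef2, with −0.44 to 0.37. Eef1b2, Eef1d and Eef1g, which encode subunits of the complex that reloads eEF1A with GTP, had 0.01 ± 0.26, −0.12 ± 0.28 and −0.05 ± 0.30. Eef1e1, a gene of a protein of the aminoacyl-tRNA synthetase complex, was too low to test. Eef1a1 and Eef1g are uncertain, because 60.6% and 64.3% of their 50-base windows occur in transcripts of other genes, 21 of them for Eef1a1.

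Messages of many elongation and some initiation factors begin with a cytosine and an unbroken stretch of pyrimidines, the 5′ TOP motif, through which mTOR and LARP1 control their translation. The 30 bases around the annotated start of 5 members are shown. Eif1, Eef1a1 and Eef2 are among the most abundant members, and Eif3f and Eif3l were added as examples with a run. Eif4ebp1 and Eif5a, also among the most abundant, are not shown. The annotated starts were not checked against the 5′ ends of the mRNA in these cells, so a run or its absence does not show whether a message has the motif. Capitals mark the longest run of a C followed by 4 or more C or T among those beginning within 10 bases of the start, read on the transcribed strand only (RefSeq, GRCm38.p6).
Eef1a1, chr9:78481710-78481739, minus strand: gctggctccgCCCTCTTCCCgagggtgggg
Eif3f, chr7:108934400-108934429, plus strand: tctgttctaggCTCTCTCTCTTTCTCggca
Eif3l, chr15:79075208-79075237, plus strand: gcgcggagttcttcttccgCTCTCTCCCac
Eif1, chr11:100319934-100319963, plus strand: gcgctggcgtcacaggggcggctatataag
Eef2, chr10:81176616-81176645, plus strand: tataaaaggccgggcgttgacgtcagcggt

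Such a run was found in 16 of the 48 members with an entry in the promoter table (33.3%). Over the 27025 genes in that table the share was 34.4%. Any such run near any annotated start counts here, so this comparison cannot tell whether members carry the 5′ TOP motif. No run in Eif1 and Eef2 says only that these letters are not in the window around this annotated start. A run in Eef1a1, Eif3f or Eif3l says only that such letters are there, and they need not be the first bases of the mRNA. The 3 members shown with a run had log2 fold changes of 0.03 ± 0.13 (SE) for Eef1a1, 0.14 ± 0.45 for Eif3f and 1.33 ± 1.13 for Eif3l, and the 2 shown without one had −0.21 ± 0.10 for Eif1 and −0.04 ± 0.19 for Eef2 (limma).

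The enzymes that modify elongation factors had the lowest median level of any role, 37.84 normalized reads per kilobase. Eef2k, which encodes the kinase that inactivates eEF2, ranged from 596 to 1547 normalized reads in LOY libraries with a median of 956, and from 10.2 to 1260 in control libraries with a median of 1119. Control 2 was the one at 10.2, and the next lowest control had 647. The log2 fold change was 1.02 ± 1.01 (SE; limma adjusted p = 0.855), 0.23 with edgeR, −0.07 without Control 2 and −0.21 without Control 1, 2 and 12.

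Eef1akmt1, which encodes a lysine methyltransferase of eEF1A, ranged from 6.56 to 82.9 normalized reads in LOY libraries with a median of 39.8. In control libraries it ranged from 0 to 144 with a median of 0. It was at 0 in 4 control libraries, each of which allows up to 3 reads (counting error only), and at 44.9 and 144 in Control 17 and 12, so the groups overlapped. This gave a log2 fold change of 3.04 ± 1.39 (SE; limma adjusted p = 0.81) but 0.49 with edgeR, and the means were 44.1 normalized reads in LOY and 31.5 in control libraries. Eef1akmt2 had 1.21 ± 1.45, and Eef2kmt was too low to test.

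Precision followed level. For the 28 members with a mean of 500 or more normalized reads the median SE was 0.26, and 23 of them (82.1%) had a 95% interval within 2-fold in either direction. For the 30 members below that the median SE was 1.04, and 3 (10.0%) had such an interval. Many of the low members were read in most libraries and missing from a few. Control 1 and 2 had 14 and 15 members under 10 normalized reads and Control 12 had 7, while each LOY library and Control 6, 17 and 18 had 3 to 5. Among members with a mean of 100 or more, 7 were under 10 in Control 1 and 9 in Control 2, and Eif1ad, Eif2ak2, Eif3d and Eif4e were on both lists. Across those 2 libraries the members under 10 made up 23.0% and 24.6% of the family, beside 33.6% and 35.4% of all listed genes.

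**Figure D4:**
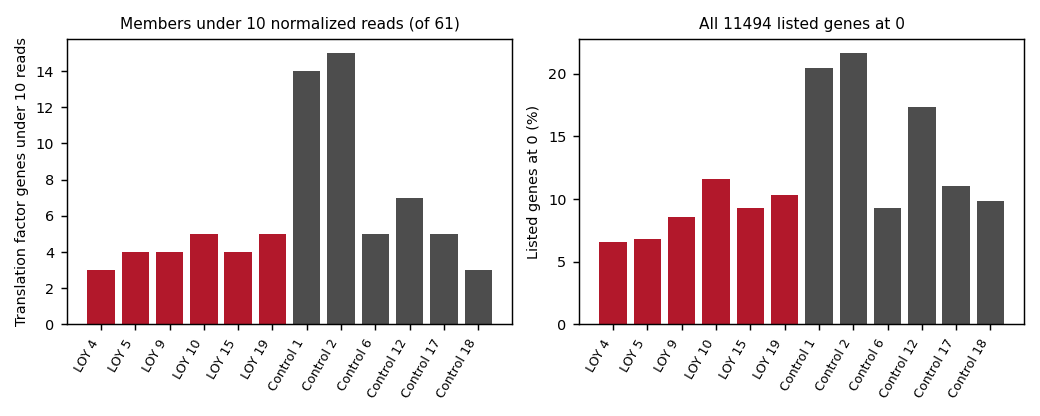
Left, the number of the 61 members under 10 normalized reads in each library; right, the percentage of the 11494 listed genes at 0, with LOY libraries in red and control libraries in grey. Control 1 and 2 have 14 and 15 such members, and Control 1, 2 and 12 are highest on the right.

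Reads that fit more than 1 gene touch part of the family. Of the 61 members 22 share no 50-base window of their main transcript with another gene, 42 share under 10%, and 5 share over 50%, namely Eif3j2, Eif4a1, Eef1g, Eef1a1 and Eif3j1. Eif4g2, among the 22, was searched over only 693 windows of its short main transcript. The sources used here do not give how such reads were counted. Strand is not kept by the library kit, and a gene cannot be told apart from one that overlaps it on the other strand.

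**Figure D5:**
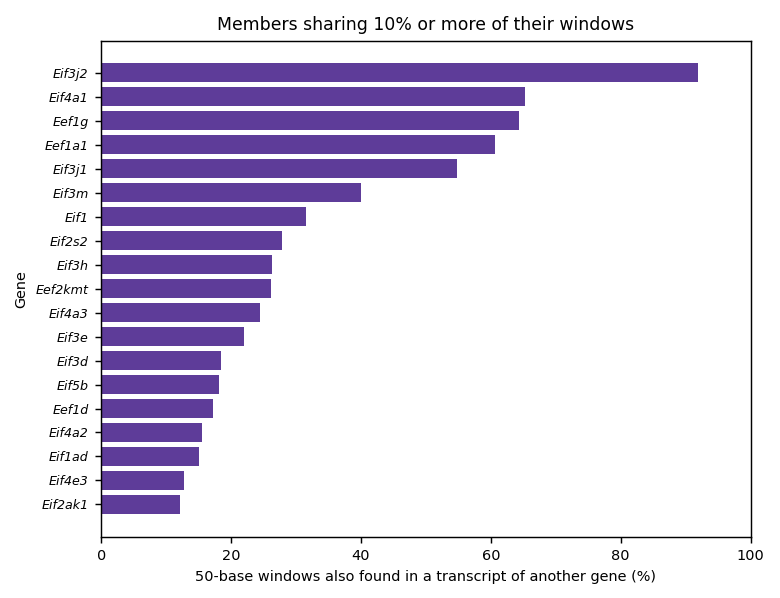
Percentage of the 50-base windows of each member's main transcript that also occur in a transcript of another gene, for the 19 members at 10% or more. Eif3j2 stands at 91.8%, Eif4a1 at 65.3% and Eif1 at 31.6%.

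Regulators and partners outside the family were taken from lists of 59 genes, of which 51 were listed and 46 tested. Of these 0 passed with limma and with edgeR, and 4 had an unadjusted p under 0.05 (8.70%, beside 6.04% of all genes), with 3 lower and 1 higher in LOY. All 3 lower ones were among the 16 tested genes of mTORC1, the S6 kinases and eIF4 regulators (18.75%, beside 1.63% of all genes). Of these 16 genes 0 passed, and 5 estimates were positive and 11 negative (31.25% positive, beside 60.9% of all genes). Mlst8, also on this list, had too few libraries at 10 or more to be tested and went the other way. It stood at 55.0 ± 65.3 normalized reads in LOY and 1.19 ± 2.42 in control libraries (SD, n = 6 each). The lists were chosen with earlier results of these data known, and whether this list differs as a whole was not tested. Cyfip1, which encodes a protein that binds eIF4E and also actin regulators, ranged from 633 to 1078 normalized reads in LOY libraries with a median of 800.3, and from 930.3 to 2054 in control libraries with a median of 1326. Its log2 fold change was −0.81 ± 0.23 (SE; limma adjusted p = 0.554), and −0.42 without Control 1, 2 and 12.

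Mtor, the gene of the kinase that phosphorylates the 4E-binding proteins, ranged from 107 to 255 normalized reads in LOY libraries with a median of 168, and from 181 to 489 in control libraries with a median of 307. On the log2 scale the difference was −0.85 ± 0.34 (SE; limma adjusted p = 0.794), and it was −0.72 or lower under every alternative run. Pdcd4, which encodes an inhibitor of eIF4A, ranged from 161 to 550 in LOY libraries with a median of 289.7, and from 370.0 to 679 in control libraries with a median of 474. Its log2 fold change was −0.70 ± 0.32 (SE; limma adjusted p = 0.81). In all 3 genes the groups overlapped.

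Dohh, which encodes the second enzyme of hypusine synthesis on eIF5A, ranged from 50.1 to 187 normalized reads in LOY libraries with a median of 116, and from 0 to 217 in control libraries with a median of 1.18. Control 1, 2, 12 and 17 had 1.08, 1.28, 0 and 0, while Control 6 and 18 had 102.7 and 217. The log2 fold change of Dohh was 3.89 ± 1.39 (SE; limma adjusted p = 0.762), against 1.08 with edgeR. In the other lists the smallest p belonged to Dnajc3 (log2 fold change −1.04 ± 0.65 SE) and Impact (0.46 ± 0.39), an inhibitor of PERK and PKR and an inhibitor of GCN2 activation, of 13 tested around eIF2 phosphorylation. Of 7 tested genes of poly(A)-binding proteins and partners these were Paip2 (0.26 ± 0.15) and Larp4b (−0.17 ± 0.21). Of 6 tested genes of release, recycling and rescue they were Hbs1l (1.06 ± 0.58) and Gtpbp2 (−0.38 ± 0.34). Without Control 1, 2 and 12, Dnajc3 was at −1.84, Impact at −0.16, Paip2 at 0.14, Larp4b at 0.03, Hbs1l at 0.29 and Gtpbp2 at −0.35, none with an adjusted p under 0.05 (limma). With the percentage of genes at 0 as a covariate Dnajc3 was at −2.10, Paip2 at 0.06 and Hbs1l at 0.40, and without single libraries Dnajc3 ranged from −1.55 to −0.72 and Gtpbp2 from −0.61 to −0.13.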

How the data were processed

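RNA of 12 libraries was measured in bulk after SMART-Seq v4 amplification and Nextera XT library preparation, per the labels' protocols. Builds GRCm38 and mm10 stand in the submitters' processing notes, beside Subread 1.5.2 with featureCounts, STAR 2.5.2b, Trimmomatic 0.36 and bcl2fastq 2.17. In 1 table the authors deposited a normalized signal for 11494 genes in each library, with the authors' log2 fold change and the authors' p-values, per the file headers. The sources used here do not give the tool behind that comparison. All values (100%) were whole multiples of 1 step per library within 0.02 reads, so the deposited signal is a read count over 1 size factor. The step of Control 6 was 1.01 normalized reads per read, so near 1 that a scaled count is harder to tell from an unscaled one there. The lowest mean listed was 8.63 normalized reads. Names that a spreadsheet had made into dates (16) were restored by identifier. GENCODE vM21 (GRCm38) held 11472 of the identifiers and gave coordinates and exon lengths for all 61 members.

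Values were tested with limma 3.58.1 (trend, robust, no covariate) in R 4.3.3 on log2(value + 1), for genes at 10 or more in at least 6 libraries, with a threshold of 0.05 on the Benjamini-Hochberg adjusted p. Alternatives were edgeR 4.0.16 and DESeq2 1.42.0 on the recovered counts, scaling by quantiles or TMM, pseudocounts of 0.5 and 5, a minimum mean of 50 and no filter, a covariate for the share of genes at 0, a fit leaving out Control 1, 2 and 12, and fits leaving out single libraries. Because of its step, an edgeR fit without Control 6 was added after seeing the data. The members, the lists and most alternatives were chosen with earlier results of these data known. The text gives values for members with an unadjusted p under 0.05, the 10 highest members by mean, the 2 with the smallest p in each role and of each regulator list those with an unadjusted p under 0.05 or else the 2 smallest. Other members are given by role, with single values chosen after they were seen. Eif1ax was missing from the lists of roles and was put with Eif1a. Main transcripts are the longest principal ones, and 50-base windows were matched on either strand among all GENCODE transcripts. Scripts were tested on simulated counts.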

Additional observations from a re-analysis of the deposited data

Results flagged for a closer look

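In 72 groups of 6 values (each named gene in each condition), the highest or lowest library stood apart from the rest of its group in 2 by Dixon's criterion (0.625 for 6 values), and chance alone flags about 1 in 20. Eef1akmt1 reached 143.8 normalized reads in Control 12, where the next control library had 44.94 and 4 had 0. Eif2b1 reached 311.3 normalized reads in Control 2, where the next control library had 110.5. LOY libraries ranged from 6.56 to 82.9 for Eef1akmt1 and from 28.0 to 279 for Eif2b1.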

How the results depend on the processing

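No translation factor gene and no regulator outside the family passed under any of the 23 alternatives run, edgeR and DESeq2 included. The number of members at an unadjusted p under 0.05, which was 3 with limma (Eef1akmt1, Eif1 and Eif1b), was 1 with edgeR (Eif5b), 5 with DESeq2 (Eif1, Eif1b, Eif2ak4, Eif4a1 and Eif5b), 1 with TMM scaling (Eef1akmt1) and 1 with a mean of 50 or more (Eif3d), and 0 to 6 with single libraries left out. It was 0 without LOY 4, 15 or 19 and 6 without Control 18. The count over all genes moved as well. Of 9742 genes tested, 588 were under that p with limma, 286 with edgeR and 586 with TMM scaling. The count was 524, 467 and 501 without LOY 4, 15 and 19, and 717 without Control 18. With DESeq2 it was 405 of 9710 genes, and with a mean of 50 or more it was 414 of 8096. The members' median log2 fold change of 0.12 was −0.060 with edgeR, −0.076 with DESeq2, −0.11 with the share of genes at 0 as covariate, −0.038 without Control 1, 2 and 12 and −0.032 with edgeR without Control 6, an alternative added after seeing the data. With single libraries left out it ranged from −0.013 (without Control 2) to 0.15.

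Of 827 recomputed log2 fold changes of single genes 43 changed sign. With the covariate these were Eef1a1 −0.0033, Eef2 0.015, Eef2k −0.71, Eif2ak2 −0.51, Eif2ak4 0.47, Eif3d −0.37, Eif4e −1.31, Eif4ebp2 −0.32, Eif4g2 −0.20, Eif4h 0.16, Eif5a 0.031, Impact −0.24 and Larp4b 0.074. Without Control 1, 2 and 12 they were Eef1d 0.024, Eef2k −0.21, Eif2ak4 0.70, Eif4e −0.68, Eif4ebp2 −0.29, Eif4g2 −0.070, Eif4h 0.17, Impact −0.16 and Larp4b 0.028. Eef2 was 0.017 with quantile normalization and Eif4a2 0.029 with edgeR without Control 6. With single libraries left out, 9 genes changed sign, with ranges of −0.039 to 0.098 for Eef1a1, −0.25 to 0.027 for Eef1d, −0.18 to 0.084 for Eef2, −0.069 to 1.29 for Eef2k, −0.18 to 0.063 for Eif4a2, −0.066 to 0.054 for Eif4ebp1, −0.26 to 0.72 for Eif4ebp2, −0.080 to 0.23 for Eif4g2 and −0.22 to 0.0040 for Eif4h. The cause was not tested. No paired analysis was possible because the groups share no replicate number. Of the 30 tested members under 500 normalized reads, 3 had a 95% interval within 2-fold, and the part of depth in this was not tested. Control 12 had 17.3% of genes at 0 with 18459792 reads, and Control 6 had 9.33% with 15901217.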

Other observations

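The names set aside from the family were read as well. The pseudogene Eif1-ps1 had 106 ± 14.3 normalized reads in LOY and 133 ± 40.9 in control libraries, Eif4a-ps4 had 52.0 ± 8.09 in LOY and 76.4 ± 30.5 in control libraries, and Eif5al3-ps had 85.6 ± 11.5 in LOY and 94.2 ± 17.4 in control libraries (SD, n = 6 each). Eif4a-ps4 reached 118 in Control 1 and 101 in Control 12, the libraries in which Eif4a1 was highest. The X-linked Eif2s3x, partner of the lost Eif2s3y, ranged from 25.1 to 208 normalized reads in LOY and from 1.75 to 127 in control libraries. None of these values was tested.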
